A study of Mus musculus with 4 samples.

Results

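AT-rich early bins are 50 kb bins of the mouse autosomes with a GC content under 39% of their assembled bases that nevertheless lie on the early side of the replication timing (RT) profile, at RT 1 or above. They number 477 of the 47840 bins examined on chromosomes 1 to 19, where 33% of all bins and 3.62% of AT-rich bins have an RT of 1 or above, shares that follow from the rule. Members were chosen by these measured RT values together with the GC content of the reference sequence, with at least 25000 assembled bases per bin, so RT and GC content of the members are given below as a description and were not tested. RT was measured by population Repli-seq, in which cells are labeled with BrdU, separated by DNA content into a fraction in early and a fraction in late S-phase, and the labeled DNA of each is sequenced. The cells were F121-9, a diploid mouse embryonic stem cell (ESC) line of the hybrid strain cas/129, cultured in N2B27+2i+LIF media with no other treatment in the labels. The 4 libraries were 2 of the early and 2 of the late fraction of this 1 line, with no second genotype, time or condition. RT is the log2 ratio of the depth-scaled reads of the early fraction to those of the late fraction. A single deposited value per bin stands for all 4 libraries, so the spread between replicates and the depth behind a bin are unknown, and no comparison between bins was tested. No expression was measured, so the cell type could not be checked against marker genes. Whether the 129 and cas homologs of a bin replicate alike cannot be told apart in this profile.

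Mammalian chromosomes replicate in large domains in which clusters of origins fire at similar times. Early domains are known to be rich in genes and in GC, and late domains to be poor in both. Many genes that are active in most cells start in CpG islands, short stretches of DNA in which the CG dinucleotide, elsewhere depleted from mammalian DNA, is kept at high density. Base composition and timing therefore usually go together, and the AT-rich early bins are among the 50 kb bins in which they do not.

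Stretches of reference sequence (mm10/GRCm38, 5′ to 3′) show what such DNA looks like. The first is the 300-base tile closest to the median GC content of the member with the lowest GC content, in an intron of Zfp280d (chr9:72309601-72309900, plus strand), and capitals mark CG in each sequence. The second is the tile chosen in the same way from the member with the highest RT, where no protein-coding gene is annotated (chr13:65922501-65922800, plus strand). The third comes from the body of Trps1 in a member with an RT of 2.21 that also holds the start of this gene (chr15:50859301-50859600, plus strand).

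Zfp280d intron: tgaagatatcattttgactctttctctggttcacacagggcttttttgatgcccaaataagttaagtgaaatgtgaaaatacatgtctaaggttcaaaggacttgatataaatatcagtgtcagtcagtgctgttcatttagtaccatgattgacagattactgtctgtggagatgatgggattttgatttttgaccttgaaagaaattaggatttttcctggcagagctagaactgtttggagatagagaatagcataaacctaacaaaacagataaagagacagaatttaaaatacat
Highest RT member: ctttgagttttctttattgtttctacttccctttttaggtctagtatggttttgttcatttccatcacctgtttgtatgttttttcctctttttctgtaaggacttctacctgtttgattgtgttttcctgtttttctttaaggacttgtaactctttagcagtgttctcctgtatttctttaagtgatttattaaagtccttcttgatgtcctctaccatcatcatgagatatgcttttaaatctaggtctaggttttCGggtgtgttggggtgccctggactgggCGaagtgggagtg
Trps1 gene body: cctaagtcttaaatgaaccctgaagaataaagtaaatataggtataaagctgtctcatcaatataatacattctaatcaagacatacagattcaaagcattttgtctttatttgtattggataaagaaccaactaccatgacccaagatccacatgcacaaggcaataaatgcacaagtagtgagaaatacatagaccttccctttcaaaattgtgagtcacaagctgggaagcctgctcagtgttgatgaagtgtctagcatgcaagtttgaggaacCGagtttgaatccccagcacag

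The Zfp280d tile had a GC content of 34.0% and no CG, and the tile of the highest RT member had 37.7% and 2. The tile inside Trps1 also had 37.7%, with 1 CG. Of all 300-base tiles of the members, 76.0% held at least 1 CG, with a mean of 1.88, against 70.0% and 1.501 in AT-rich late bins, 89.6% and 3.54 in other early bins and 81.4% and 2.54 in all bins. Members thus lay between AT-rich late and other early bins. In the 300 bases before a protein-coding gene start, the median was 16.5 CG before the 160 starts in members, 1 in AT-rich late bins and 13 in other early bins.

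Other groups of bins are set beside the members. AT-rich late bins have a GC content under 39% and an RT of -1 or lower (11934 bins). Other early bins have a GC content of 39% or higher and an RT of 1 or above (15321 bins). AT-rich intermediate bins have a GC content under 39% and an RT between -1 and 1 (776 bins). Intervals of shares are exact 95% binomial intervals, which cover counting only, and neighboring bins often share a gene and are not independent.

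The 477 members were 3.62% of the 13187 AT-rich bins (exact 95% interval 3.30% to 3.95%), and nothing is read from this share. The share with an RT of 1 or above was 1.16% of bins with a GC content of 35% to 36%, 2.40% at 36% to 37%, 2.56% at 37% to 38% and 6.07% at 38% to 39%, and went on to 11.3% at 39% to 40% and 53.4% at 44% to 45%. The limit of 39% therefore lies on a slope and not at a step. RT of the members ran from 1.01 to 3.68, with a median of 2.09 and quartiles of 1.55 and 2.59. The median of other early bins was 2.69. An RT of 3 or more was reached by 46 members (9.64%) and by 5846 other early bins (38.2%), and 110 members lay under RT 1.5. GC content ran from 34.0% to 38.998%, with 281 members at 38% or more and 89 under 37%. Within the members, median GC content was nearly the same in every RT band, 38.4% at RT 1 to 1.5 and 38.2% at RT 3 to 4.

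**Figure D1:**
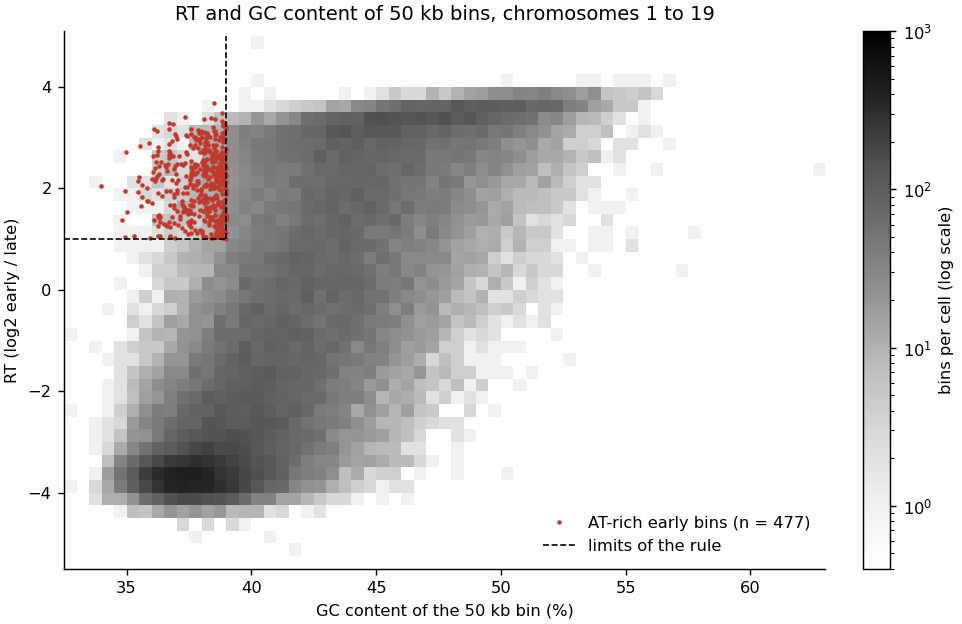
GC content of each 50 kb bin in percent (x axis) against RT as the log2 early over late ratio (y axis), for the 47840 bins of chromosomes 1 to 19. Gray cells give the number of bins on a log scale, red points are the 477 AT-rich early bins and dashed lines the limits of the rule, and the members form the sparse upper left corner, with more points toward the GC limit of 39%.

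At the RT limit, the members closest to it lay in Pdgfc (RT 1.01, GC 38.97%), which encodes a platelet-derived growth factor, at Arhgap29 (1.01, 38.4%) and in Faf1 (1.02, 35.9%). The AT-rich bins just outside had RT 0.99 (chr6:15650001-15700000), 0.99 (chr13:14150001-14200000) and 0.98 (chr4:109850001-109900000), the last being the next bin of Faf1. Members just inside the GC limit lay in Chn1 (RT 2.41), Rabgap1l (1.47) and at Golga1 and Scai (1.92), and the early bins just outside it had RT 2.71, 3.05 and 1.01. RT on either side of the RT limit differed by less than the bin-to-bin noise of the profile, which was 0.14 as an SD over early bins, estimated from how far a bin lies from its adjacent bins.

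Nearly every AT-rich early bin lay in or on a protein-coding gene. Of the 477 members, 450 (94.3%, exact 95% interval 91.9% to 96.2%) overlapped a protein-coding gene of the GENCODE annotation, against 30.1% of AT-rich late bins (29.3% to 31.0%) and 84.3% of other early bins (83.7% to 84.9%). Protein-coding genes covered 86.9% of the members' bases, 23.2% of those of AT-rich late bins and 57.9% of those of other early bins. The members were thus more fully covered than early bins of higher GC content. In 286 members (60.0%) every base lay in a protein-coding gene, whether 1 gene or several together, against 18.3% of AT-rich late and 20.9% of other early bins. In 329 members (69.0%) a gene was present but did not start there, against 21.4% and 31.1%. Most of this gene DNA was intron, 78.4% of the members' bases, and exons made up 8.57%, against 1.14% in AT-rich late and 7.70% in other early bins. Introns of members had a GC content of 37.5% and exons 39.5%, against 45.3% and 49.9% in other early bins.

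The high gene cover was present in each band of GC content. At 35% to 36%, genes covered 99.7% of the bases of the 14 members and 24.8% of those of the 1170 AT-rich late bins. At 36% to 37% the values were 94.3% and 22.4%, at 37% to 38% 91.4% and 20.8%, and at 38% to 39% 82.7% and 24.9%. Early bins just above the limit, at 39% to 40%, stood at 69.0%. Gene cover of early bins was therefore lower in each band of higher GC content from 35% to 40%, while that of late bins showed no such order. Along RT, gene cover of AT-rich bins was 19.04% at RT -3.5 to -3, 48.0% at -0.5 to 0, 80.9% at 1 to 1.5 and 93.6% at 3 to 3.5. Bins of higher GC content went from 30.4% to 61.4% between the first and the last of these bands. The line of AT-rich bins lay under that of other bins from RT -4.5 to -1.5 and above it from -1.5 upward.

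**Figure D2:**
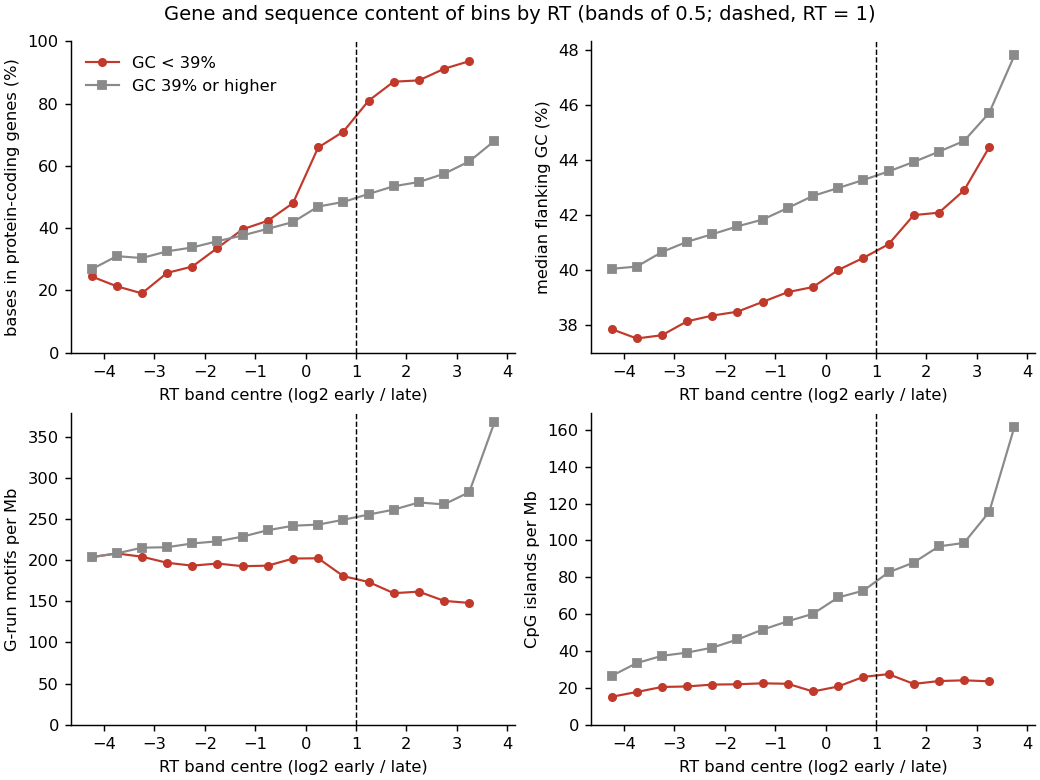
Bins of GC content under 39% (red) and of 39% or higher (gray) in bands of 0.5 RT with at least 20 bins, by band center on the x axis, with the share of bases in protein-coding genes, the median GC content of the 500 kb on each side, G-run motifs per Mb and CpG islands per Mb on the y axes. The dashed line marks RT 1, so red points to its right are the AT-rich early bins, whose gene cover runs from 80.9% to 93.6% while their CpG islands stay between 22.1 and 27.5 per Mb.

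Gene starts were sparser than in other early bins. Members held 160 protein-coding gene starts, spread over 25.4% of the bins, which is 6.71 per Mb (exact 95% Poisson interval 5.71 to 7.83). AT-rich late bins held 2.61 per Mb and other early bins 17.5 per Mb, so members lay between them. Starts of all annotated genes except the GENCODE type TEC, non-coding genes and pseudogenes included, were at 17.2, 9.25 and 33.2 per Mb. Among members, starts of protein-coding genes were at 8.91 per Mb at RT 1 to 1.5, 5.69 at RT 2 to 2.5 and 6.09 at RT 3 to 4. The order against AT-rich late bins differed by GC band. At 35% to 36% members held 1.43 per Mb (1 start) against 2.12 in AT-rich late bins. At 36% to 37% the values were 2.00 (7 starts) and 2.41. At 37% to 38% they were 6.36 and 2.28, and at 38% to 39% 8.33 and 3.22.

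The starts that members did hold were mostly of the CpG island kind. A CpG island, here merged 200-base windows with a GC content of 50% or more and a CG frequency of at least 0.6 of that expected from base composition, lay within 500 bases of 120 of the 160 starts (75.0%, exact 95% interval 67.6% to 81.5%). The share was 17.8% (15.9% to 19.8%) for the 1559 starts in AT-rich late bins and 77.1% (76.3% to 77.8%) for starts in other early bins. Olfactory receptor genes gave 655 and vomeronasal receptor genes 125 of these 1559 AT-rich late starts. They weigh on every value given here for gene starts in, and genes over, AT-rich late bins. The comparison was not repeated without them. Median GC content of the 1000 bases around a start was 57.1% in members, 37.2% in AT-rich late bins and 57.2% in other early bins. At their gene starts members thus had the composition of the other early bins, although the bins as a whole had that of AT-rich DNA. Genes that start in members were long, with a median of 40.7 kb against 7.93 kb in AT-rich late and 18.1 kb in other early bins.

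CpG islands as a whole were nearer in number to those of AT-rich late bins. Members held 579 islands, those at gene starts included, or 24.3 per Mb, against 19.1 per Mb in AT-rich late and 107 per Mb in other early bins. Leaving out islands that lie mostly in soft-masked repeats, the rates were 14.1, 3.27 and 87.6 per Mb, and under a stricter definition 4.91, 1.67 and 17.2 per Mb. Members also had a higher GC content than AT-rich late bins, with medians of 38.2% and 37.5%. Within GC bands the order of these 2 groups was mixed for all islands. Rates per Mb were 5.71 in members and 9.13 in AT-rich late bins at 35% to 36%, and 12.6 and 13.5 at 36% to 37%. At 37% to 38% they were 22.4 and 20.6, and at 38% to 39% 29.0 and 25.3. The CG frequency over that expected had a median of 0.17 in members, 0.14 in AT-rich late bins and 0.22 in other early bins. Repeats soft-masked in the reference made up a median of 32.4% of a member, 39.98% of an AT-rich late bin and 28.1% of an other early bin.

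G-run motifs, the pattern that can fold into a G-quadruplex and that is often found near replication origins, were rarer in members than in either group. The motif searched was 4 runs of at least 3 G (GGG) separated by 1 to 7 bases, on both strands, with matches on a strand not overlapping. Members held 161 per Mb, against 203 per Mb in AT-rich late bins and 282 per Mb in other early bins. At least 1 match was present in 472 members (99.0%), and in 99.9% of all bins. The number of matches per bin had a median of 7 in members, 10 in AT-rich late bins and 13 in other early bins. Along RT the rate in AT-rich bins was lower at higher RT, from 208 per Mb at RT -4 to -3.5 to 148 at RT 3 to 3.5, whereas in bins of higher GC content it went from 208 to 283. Median GC content of these latter bins also went from 40.1% to 45.9%. At a GC content of 39% to 40% the rate was 181 per Mb in early and 210 in late bins, and at 40% to 41% 182 and 213. A lower rate in early bins was thus not particular to AT-rich bins. A match describes letters only and is not a site of use.

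Members were AT-rich islands in GC-richer surroundings. The 500 kb on each side of a member had a median GC content of 42.2%, against 37.8% around AT-rich late bins and 44.9% around other early bins. Around early bins just above the limit it was 42.1% at a GC content of 39% to 40% and 42.3% at 40% to 41%. Such surroundings were therefore not particular to the members. This flanking GC content was higher in members of higher RT, from 40.9% at RT 1 to 1.5 to 44.4% at RT 3 to 4. Of the 474 members with a value on both sides, 437 had a lower GC content than the mean of their neighbors, with a median difference of -2.16 percentage points over these members, against -0.24 in AT-rich late bins. Choosing bins by a low GC content in itself favors a difference in this direction. At a distance of 50 kb before and after a member the median was 39.9% and 40.02%, and at 200 kb 42.1% and 42.5%. The dip in GC content was therefore about as wide as the bin and its neighbors. Gene cover had its peak in the member, with a mean of 86.9%, and was 66.98% and 66.02% at 50 kb and 56.3% and 54.3% at 100 kb, close to the 58.5% and 58.6% at 100 kb from other early bins. Median RT showed a shallow dip, with 2.09 in the member, 2.16 and 2.20 at 50 kb and 2.26 and 2.30 at 100 kb. RT was lower than the mean of both neighbors in 312 of the 474 members (65.8%). The median difference was -0.06, against 0.04 in other early bins and -0.02 in AT-rich late bins. The noise of a single bin, 0.14 as an SD, was larger but is not the error of a median, which was not estimated.

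**Figure D3:**
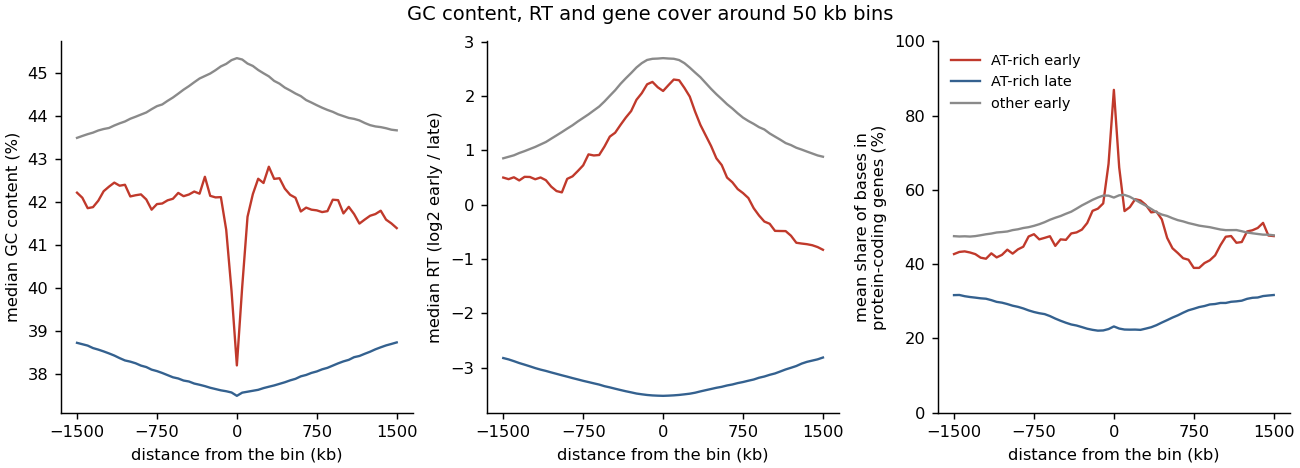
Median GC content, median RT and mean share of bases in protein-coding genes (y axes) at distances of up to 1500 kb from the bin (x axis), for the 477 AT-rich early bins (red), 11934 AT-rich late bins (blue) and 15321 other early bins (gray). GC content dips to 38.2% and gene cover peaks at 86.9% at the members, with GC content back above 42% by 200 kb.

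Runs of neighboring bins with an RT of 1 or above are called early domains here. Of the 918 early domains 236 held a member, and 6 consisted of members only. Early domains of at least 500 kb held 372 members (78.0%, exact 95% interval 74.0% to 81.6%) and 87.5% of other early bins. The domain of a member had a median length of 900 kb and a GC content of 42.6%, against 1450 kb and 45.3% for other early bins, and 31 members lay in a domain whose GC content was itself under 39%. Members lay somewhat nearer to domain ends, at a median of 200 kb against 300 kb, and 74 members (15.5%) were an end bin against 10.9% of other early bins. The nearest bin of RT -1 or lower was 550 kb from a member and 850 kb from an other early bin, as medians. In the 230 domains with members and other bins, mean RT of the members was lower in 147 and the median difference was -0.15, with quartiles of -0.57 and 0.09. These values describe the readout that chose the members.

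The 477 members formed 337 stretches of consecutive members, of which 244 were a single bin, 64 were 2 bins, 18 were 3 bins, 6 were 4 bins, 3 were 5 bins and 2 were 6 bins long. The longest stretches each lay in or beside 1 long gene, apart from the stretch on chromosome 18.

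The stretch with the highest mean RT among those of 6 bins lay wholly inside Stag1, which encodes a subunit of the cohesin complex (chr9:100650001-100950000). Along it RT was 2.48, 2.28, 1.75, 1.95, 2.23 and 2.69 at GC contents of 36.998%, 36.3%, 35.8%, 36.8%, 35.5% and 38.5%. The bins on either side had RT 3.31 and 3.28 at 43.3% and 43.0%. RT thus had a trough along the AT-rich part of the gene, down to 1.75, with all 6 bins above 1.

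The other stretch of 6 bins covered the first part of Trps1, a GATA-type zinc finger repressor, and DNA before its start (chr15:50750001-51050000). RT was 1.53, 1.90, 2.21, 2.43, 2.11 and 1.25, with 0.97 and 0.49 on either side. This domain was made of members only, and its highest RT was in the bin next to the Trps1 start, on the upstream side. GC content was 35.02%, 37.04%, 38.8%, 36.6%, 38.4% and 36.6%, with 35.7% and 37.3% in the flanking bins, so this stretch lay in DNA that was AT-rich throughout.

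Rims2, a presynaptic protein of neurotransmitter release, held a stretch of 5 bins (chr15:39400001-39650000) with RT 1.06, 1.66, 2.01, 2.52 and 2.85 at 36.4%, 35.6%, 35.8%, 36.2% and 38.1%. RT was 0.88 in the bin before and 3.13 in the bin after, so the stretch formed a slope. On chromosome 18 a stretch of 5 bins (chr18:9950001-10200000) covered Thoc1, a subunit of an mRNA export complex, Usp14, a proteasome-associated deubiquitinase, and Rock1, a protein kinase. RT there was 1.05, 1.62, 2.42, 2.06 and 1.65, a small peak with 0.29 before and 1.45 after. The stretch in Rasal2, a Ras GTPase activating protein (chr1:157150001-157400000), had RT 1.63, 1.28, 1.40, 1.75 and 2.14 between bins of 2.42 and 2.69, again a trough, and GC contents of 38.2%, 37.5%, 37.1%, 35.8% and 37.9% between bins of 44.5% and 42.2%.

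**Figure D4:**
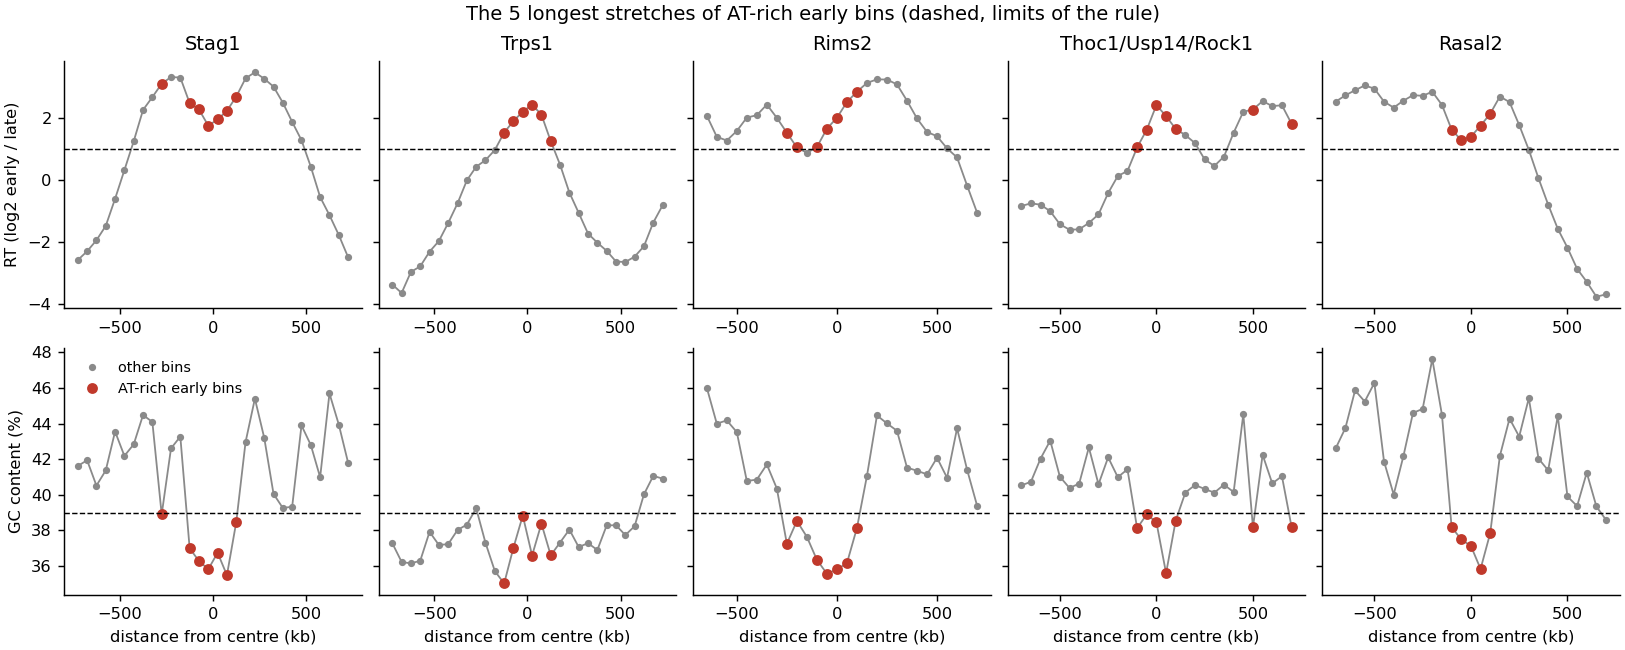
RT (upper row) and GC content in percent (lower row) of 50 kb bins along the 5 longest stretches of AT-rich early bins, by distance from the center of the stretch in kb. Red points are AT-rich early bins, those of the stretch in the middle and any others within the plotted range, gray points are all other bins and dashed lines the limits of RT 1 and GC 39%; RT forms a trough in Stag1 and Rasal2, a peak at Trps1 and at Thoc1/Usp14/Rock1, and a slope in Rims2.

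In all, 420 protein-coding genes overlapped a member. Their median length was 78.5 kb and 150 of them (35.7%) spanned 100 kb or more, against 11.8 kb and 22.5% for the 1920 genes over AT-rich late bins and 18.8 kb and 9.63% for the 13851 genes over other early bins. Longer genes overlap more bins, and this moves these medians up by amounts that can differ between groups. Of the genes over members 160 also started in one, against 13423 of those over other early bins. Genes that start in the bins had medians of 40.7 kb in members, 7.93 kb in AT-rich late and 18.1 kb in other early bins, a smaller contrast with other early bins. A CpG island lay at the start of 357 of the 420 genes (85.0%, exact 95% interval 81.2% to 88.3%), against 27.4% for genes over AT-rich late bins and 77.1% for genes over other early bins. Most genes over members thus had a CpG island at the start. In 396 the bin of the gene start was early, in 369 every bin of the gene was early, and in 254 the start lay in a bin with a GC content of 39% or more.

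Genes that covered the most members were Rims2 (7 of its 11 bins), Stag1 (6 of 9) and Rasal2 (5 of 7). Behind them 6 genes covered 4 members each. Ptpn4, a protein tyrosine phosphatase, and Bicd1, an adaptor of the dynein motor, overlapped 4 bins that were all members, with RT 1.17 to 1.89 and 2.02 to 2.64. Strbp, an RNA-binding protein (4 of 6 bins), Oxr1, a protein of oxidation resistance (4 of 10), and Faf1, a ubiquitin-binding Fas-associated factor (4 of 7), ran from RT 1.47 to 3.15, from 1.36 to 2.64 and from 0.98 to 1.84. Lrba, a protein of vesicle traffic (4 of 12 bins), had its start at RT 1.89, was at -0.07 in the gene body and at 2.59 at the other end, so only 6 of its 12 bins were early. All 9 of these genes had a CpG island at the start, and the 1000 bases around the start had a GC content from 50.6% (Stag1) to 74.2% (Rims2) although the members within them had between 35.282% and 38.988%.

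The 5 members of lowest GC content also lay at genes. The lowest of all (chr9:72300001-72350000, 34.0%, RT 2.05) lay wholly in Zfp280d, a zinc finger gene, between bins of 40.7% and 40.8% with RT 2.00 and 2.47. The next was at Stap1, a signaling adaptor, and Uba6, a ubiquitin-activating enzyme (chr5:86100001-86150000, 34.8%, RT 1.38). A bin at Tmem196 (chr12:120000001-120050000, 34.95%, RT 1.95) held only 29022 assembled bases, and a bin at Cdc73, a subunit of the PAF complex of transcription elongation, and B3galt2 (chr1:143600001-143650000, 34.95%) was at RT 1.04. The last lay in Ccdc88a, an actin-binding protein (chr11:29450001-29500000, 34.97%), at RT 2.71 on a slope from 2.22 to 3.21. Low GC content at this level was thus found from near the RT limit up to 2.71.

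Among the 5 members of highest RT, 4 lay in genes whose neighboring bins were also at RT 2.94 or above. Ubap2l (chr3:90000001-90050000) was at RT 3.48 between bins of 3.80 and 3.55, and its GC content of 38.8% lay between 47.1% and 45.6%. Ckap5, a microtubule polymerase (chr2:91550001-91600000), was at 3.41 and 37.3% between 41.8% and 45.7%. The bin shared by Ube2g1, a ubiquitin-conjugating enzyme, and Ankfy1, an endosomal protein (chr11:72650001-72700000), was at 3.39, and Pds5a, a regulator of cohesin (chr5:65600001-65650000), at 3.38. The highest of all (chr13:65900001-65950000), at RT 3.68, held no protein-coding gene and lay 0.99 above the mean of its neighbors.

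The members with the most gene starts held the starts of 3 or 4 neighboring genes. A bin on chromosome 2 (chr2:37400001-37450000, RT 1.39) held the starts of Rc3h2, an RNA-binding ubiquitin ligase, the zinc finger genes Zbtb6 and Zbtb26, and Rabgap1, with 4 CpG islands and a 1 kb window reaching 60.3% in a bin of 38.4%. On chromosome 18 a bin (chr18:35550001-35600000) at RT 3.27 held the starts of Gm28285, Matr3, a nuclear matrix protein, and Paip2, a regulator of translation. The third (chr5:3800001-3850000), at RT 2.18, held those of Ankib1, Krit1 and Lrrd1, with a 1 kb window of 62.2% in a bin of 37.5%.

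Members were found on every autosome, from 8 on chromosome 19 to 48 on chromosome 1. As a share of the AT-rich bins of the chromosome, they ranged from 1.41% on chromosome 16 (10 bins, exact 95% interval 0.679% to 2.58%) to 9.46% on chromosome 9 (42 bins, 6.90% to 12.6%), with chromosome 11 next at 8.85% (33 bins, 6.17% to 12.2%). Of all bins, 29.2% had an RT of 1 or above on chromosome 16, 40.4% on chromosome 9 and 53.0% on chromosome 11. Nothing is read from the range. Gene cover of members was above that of AT-rich late bins on 19 of 19 chromosomes, by 43.6 to 77.4 percentage points, and above that of other early bins on 19 of 19, by 5.49 to 37.7. Flanking GC content was above that of AT-rich late bins on 19 and below that of other early bins on 18, the exception being chromosome 6. Gene starts per Mb were above AT-rich late bins on 15 and below other early bins on 19, with chromosomes 2, 7, 9 and 19 as exceptions to the first. G-run motifs were below AT-rich late bins on 18, with chromosome 16 as the exception, and below other early bins on 19. The order in exons against other early bins was mixed, with members higher on 11 of 19.

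**Figure D5:**
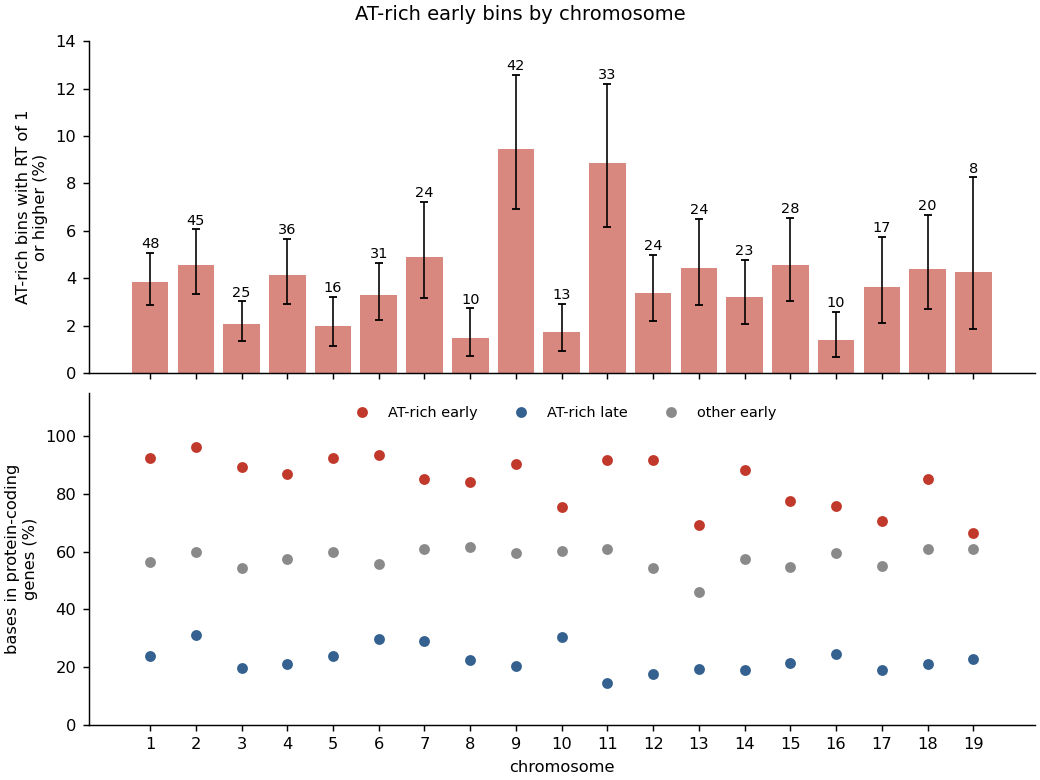
Upper panel, the share of AT-rich bins with an RT of 1 or above on each chromosome, in percent, with exact 95% binomial intervals and the number of AT-rich early bins above each bar. Lower panel, the share of bases in protein-coding genes in percent for AT-rich early (red), AT-rich late (blue) and other early bins (gray), with red above gray and gray above blue on all 19 chromosomes.

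Of all 20713 protein-coding genes that start in a bin examined, 2.03% overlapped a member, the share beside which each gene list is given. An early bin held the start of 13583 of the 20713 (65.6%), a member that of 160 and an AT-rich late bin that of 1559. At 2.03% a short list would hold few or no genes that overlap a member, so nothing is read from its count. None of the 30 listed pluripotency regulators and markers did, although all 30 started in early bins, with a median RT of 3.25, and 0 started in an AT-rich bin. None of the 30 germ layer and lineage regulators did either, with 18 starting in early bins. Of 29 genes of replication licensing and timing control, 25 started in early bins and 2 of them in members. These were Orc6, a subunit of the origin recognition complex (RT 2.64, GC 38.9%), and Dbf4, the activating subunit of the Cdc7 kinase (RT 1.18, GC 38.8%), both with a CpG island start. None of 90 cytosolic ribosomal protein genes overlapped a member, and 85 started in early bins.

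Among families taken by symbol, 14 of 380 Zfp zinc finger genes (3.68%) overlapped a member, and 7 of them started in one. They included Zfp990, Zfp980, Zfp600 and Zfp985 on chromosome 4 and Zfp97, Zfp948 and Zfp983 on chromosome 17, at RT 1.55 to 2.73, and 5 of these 7 had no CpG island at the start. Olfactory receptor genes, the listed family with the most starts in AT-rich bins, had 655 of 1128 starts in AT-rich late bins and 2 in members, Olfr466 and Olfr465-ps1, both on chromosome 13. Vomeronasal receptor genes had 125 of 316 in AT-rich late bins and 7 in members, on chromosomes 4, 7, 10 and 17, at RT 1.02 to 2.08 and with no CpG island at the start. Of the remaining families, Slc25a40, Cyp20a1, Ddx10, Kcnj13 and Kcnrg started in members, and no serpin, cadherin or protocadherin gene overlapped a member.

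The 27 members without a protein-coding gene (5.66%, exact 95% interval 3.76% to 8.13%) lay mostly near the GC limit, and 23 had a GC content of 38% or more. Their RT ran from 1.03 to 3.68. Of these, 3 formed the upstream part of the stretch at Trps1, and 4 lay on chromosome 13 between 65400001 and 66700000, a region picked out here after its values were seen. Between 65 and 67 Mb on chromosome 13, 6 of 40 bins were members, RT ran from 0.08 to 3.88, neighboring bins differed by a median of 0.44 against 0.22 over all early bins, and soft-masked repeats made up a median of 43.7%. RT of single bins was thus less even there. The part of repeats in this was not tested.

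Of the 477 members 8 differed by over 0.5 from the mean RT of their neighbors, 5 of them upward. The largest excess, 1.99, was at Skint3 (chr4:112250001-112300000), at RT 1.61 between bins of -0.33 and -0.44, and the largest deficit, -1.11, was at Zfp97 (chr17:17100001-17150000), at RT 1.55 between 2.48 and 2.85. Only 3 members were early domains of a single bin, so the others had at least 1 early neighbor. Without these 8 members, gene cover was 87.7% and the median flanking GC content 42.2%.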

How the data were processed

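Population Repli-seq of F121-9 cells gave 4 libraries, 2 each of the early and late fraction. The authors mapped reads to mm10 (Bowtie2, SAMtools and bedtools are named in the submitters' processing notes, without versions), converted each fraction to RPM and deposited the log2 of early over late reads per 50 kb bin, 1 value combining all libraries. How replicates were combined, and any smoothing or bin filter, is not given in the sources used here.

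GC content, CpG islands, motifs and soft-masked repeats were counted in the RefSeq GRCm38 sequence, and genes in GENCODE vM21. A stricter CpG island used windows of 500 bases, 55% and 0.65. Of 47928 deposited autosomal bins, 88 with under 25000 assembled bases were left out. X was not used. Members and gene lists were chosen with earlier results of these data known. Named were the 5 members of lowest GC content and of highest RT, the 5 longest stretches, the 3 members with most gene starts, the 3 bins each side of each limit, the genes in these, the 5 genes over most members (9 with ties) and listed genes over a member. Skint3, A830018L16Rik and the region on chromosome 13 were chosen after their values were seen. Counting of GC content, CpG islands and G-run motifs was tested on simulated sequence, and the finding of runs on planted runs. No RT profile was simulated. Python 3.11.15, numpy 2.4.6, scipy 1.17.1, pandas 2.3.3 and matplotlib 3.10.9 were used. One sequence given by this rule is not reported here.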

Additional observations from a re-analysis of the deposited data

How the results depend on the processing

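Of 71 alternatives over 8 results, 63 chosen with the design and 8 after seeing the data, 44 stayed within the main interval or within 1.5 times the main count and 27 moved. With the GC limit at 38%, there were 196 members, 2.29% of AT-rich bins, in 146 stretches, with 4.39 gene starts per Mb, 2.04% without a gene, 17.4 CpG islands per Mb and 81.6% in domains of at least 500 kb. At a limit of 40% there were 1005 members, 5.63%, 637 stretches, 8.02 starts per Mb, 9.65% without a gene and 31.6 islands per Mb. With RT 0 or above the values were 733 members, 5.56%, 9.55% without a gene and 41.4% flanking GC content, and with RT 2 or above 264 members, 2%, 209 stretches, 5.53 starts per Mb, 42.8% flanking GC content and 67.4% in long domains. All annotated genes except the type TEC gave 17.2 starts per Mb and 2.52% without a gene, stricter islands 4.91 per Mb, and flanks of 200 kb 41.6%. Gene cover of members lay between 77.5% and 92.9% over 9 settings, against 21.5% to 24.3% in AT-rich late and 55.8% to 60.1% in other early bins. A running median of RT over 5 bins, at least 45000 assembled bases, and GC content outside repeats gave 474, 472 and 450 members. No paired analysis was possible because 1 value per bin stands for all libraries, and leaving out a replicate was not possible for the same reason. The depth behind a bin and the spread between replicates are unknown, so the error of RT is unknown too. The bin-to-bin noise covers only differences between adjacent bins.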

Other observations

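AT-rich bins of intermediate RT, between -1 and 1, numbered 776. Genes covered 52.4% of their bases and 68.2% of them overlapped a protein-coding gene, values that lay between those of AT-rich late bins and of members. Their flanking GC content had a median of 39.5% and their G-run motifs were at 195 per Mb, also between the other AT-rich groups. Their 260 protein-coding gene starts were at 6.70 per Mb, close to the 6.71 per Mb of members. Of these starts 37.3% (exact 95% interval 31.4% to 43.5%) had a CpG island. The 256 of these bins with RT from 0 to 1 had gene covers of 65.9% at RT 0 to 0.5 and 71.0% at RT 0.5 to 1.

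Starts of non-coding genes and pseudogenes were counted per Mb in the same groups, with no test of the differences. Starts of snoRNA genes, which guide the chemical modification of other RNAs and often lie in introns, were at 0.92 per Mb in members (22 starts, exact 95% Poisson interval 0.58 to 1.40), 0.39 in AT-rich late bins and 0.81 in other early bins, the last within the interval of members. Starts of miRNA genes were at 0.92 per Mb in members (22 starts), 0.32 in AT-rich late and 1.55 in other early bins. Starts of lncRNA genes were at 2.01 per Mb (48 starts), 1.21 and 6.44, so in members they were closer to AT-rich late bins. Processed pseudogenes, copies of mRNA put back into the genome, were at 4.65 per Mb in members (111 starts, 3.83 to 5.60), 2.94 in AT-rich late bins and 4.45 in other early bins, the last again within it.

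The start of A830018L16Rik on chromosome 1, named after its values were seen, lay in an AT-rich early bin at RT 2.01, and RT along the gene reached -2.03 within its 12 bins, of which 3 were members.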
